A study of Mus musculus with 11 samples.

Results

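Atp2a2, Hrc, Kcnd2 and Atp1b1 are 4 genes by which a heart muscle cell stores calcium and sets its excitability, and their RNA was compared in ventricles of TG1306/1R mice, which overproduce angiotensin II in the heart. They were chosen by their platform gene symbols, with earlier results of these arrays in view, from the 8106 named genes that were tested. The symbols lie on 12 of the 17664 spots of the array, with 4 spots for Atp2a2, 1 for Hrc, 3 for Kcnd2 and 4 for Atp1b1, and all 12 spots gave values. Because the difference between dilated and wild-type hearts had a part in that choice, values of these genes in that comparison are given as a description.

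The groups were heterozygote carriers of the transgene with a dilated heart (Dil), heterozygote carriers with concentric hypertrophy (Hyp) and littermates negative for the transgene (WT), with 4 males of about 60 weeks in each and the strain given as C57/BL6. No mouse had been treated, and RNA came from the right and left ventricles with the septum. Carrier hearts had been sorted into Dil and Hyp by genotype, chamber shape, cardiac weight index and the expression of hypertrophic markers, so the groups were defined in part by the state of the heart, and the sources used here do not give the promoter that drives the transgene. The cardiac weight index was 8.1, 7.8, 7.8 and 9.2 mg/g in Dil mice 1 to 4, 5.8, 5.4, 5.45 and 5.5 mg/g in Hyp mice 1 to 4, and 4.2, 4.5, 4.5 and 4.9 mg/g in WT mice 1 to 4, where the value of Hyp mouse 3 is the mean of 5.3 and 5.6 mg/g, which the labels of its 2 arrays give.

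Each of 11 cDNA arrays received the labelled RNA of 2 mice with the same number, called a set here. Dil and WT were compared on 3 arrays, Dil and Hyp on 4, and Hyp and WT on 4. The Dil and WT array of set 2 was not analysed here, and the Dil minus WT value of that set is the sum of its other 2 arrays. The deposited value of a spot is a log ratio of the 2 dyes, read here as log2 of Cy5 over Cy3. The sources used here give neither the base of the logarithm nor the direction, which is therefore only likely. It rests on Agt, the angiotensinogen gene that this line is known to overexpress, which with this direction was higher by 2.15 ± 0.40 in Dil and by 2.09 ± 0.40 in Hyp than in WT (log2 change ± SE). The opposite direction would turn every sign below, and natural logarithms would make every fold too small. A ratio carries no level, so it cannot be said which of the 4 genes was more abundant, and the depth behind a spot is unknown.

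With each heartbeat, calcium enters the muscle cell and releases more calcium from the sarcoplasmic reticulum through the ryanodine receptor, and relaxation follows as a calcium pump returns it. Atp2a2 encodes that pump. Hrc encodes a histidine-rich protein inside the reticulum that binds calcium and interacts with the pump and with the release complex. Kcnd2 encodes a pore subunit of the potassium channel that carries the fast transient outward current, which begins repolarization in rodent ventricle. Atp1b1 encodes a beta subunit of the sodium pump, whose sodium gradient drives calcium out of the cell through the sodium-calcium exchanger.

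The stretches just upstream of the start sites are shown for the 3 genes that have an entry in the RefSeq promoter table (build GRCm38.p6), since Hrc and Kcnd2 were lower and Atp1b1 higher in Dil hearts. Each holds the 250 bases before the start, 5′ to 3′ on the strand of the gene, with CANNTG (E-box) and GATA in capitals, searched on both strands. Hrc lies on the plus strand at chr7:45335019-45335268, Kcnd2 on the plus strand at chr6:21215096-21215345 and Atp1b1 on the minus strand at chr1:164458356-164458605.
Hrc: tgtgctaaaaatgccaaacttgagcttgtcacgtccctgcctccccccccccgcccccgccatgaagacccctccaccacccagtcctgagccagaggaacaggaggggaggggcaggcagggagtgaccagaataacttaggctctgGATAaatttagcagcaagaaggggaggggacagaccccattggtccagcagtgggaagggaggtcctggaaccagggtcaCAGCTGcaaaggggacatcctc
Kcnd2: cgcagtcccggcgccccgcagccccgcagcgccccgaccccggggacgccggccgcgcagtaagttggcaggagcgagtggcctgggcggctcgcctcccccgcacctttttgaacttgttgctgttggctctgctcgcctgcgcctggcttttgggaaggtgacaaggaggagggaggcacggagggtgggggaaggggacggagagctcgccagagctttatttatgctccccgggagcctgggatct
Atp1b1: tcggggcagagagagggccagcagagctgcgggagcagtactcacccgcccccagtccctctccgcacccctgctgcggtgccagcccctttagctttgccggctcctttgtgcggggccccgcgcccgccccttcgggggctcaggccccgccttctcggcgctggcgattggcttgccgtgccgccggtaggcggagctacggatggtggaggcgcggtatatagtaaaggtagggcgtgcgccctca
The GC content was 59.6% for Hrc, 68.8% for Kcnd2 and 70.4% for Atp1b1, against a median of 52.4% over the 32851 promoters of the table. Hrc alone among the 3 held an E-box and GATA, which 66.2% and 53.6% of all promoters held. Neither strand of the 3 held a MEF2 site, a CArG box (found in 2.92% and 1.47% of all promoters) or the box TATAAA, which 12.4% of all promoters held. The core of the NFAT site, GGAAA, which 55.6% of promoters held, and AGGTCA, a motif of nuclear receptors, which 14.0% held, were also not in these windows, nor was the MCAT element, CATTCC, which 12.6% held. These are matches of letters only.

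In Dil hearts, Hrc was below WT by more than any of the other 3 genes, Kcnd2 and Atp2a2 were also lower, and Atp1b1 was higher. The Hyp hearts, which carry the same transgene, lay closer to WT for all 4 genes. No difference between Dil and Hyp or between Hyp and WT passed the threshold of 0.05 on the p-value adjusted over all features for any of the 4. Errors below are standard errors of a fit over all 11 arrays, n is 4 mice per group, and values are log2 changes. The arrays are of bulk tissue, so fewer cells of a type and less RNA per cell cannot be told apart.

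**Figure D1:**
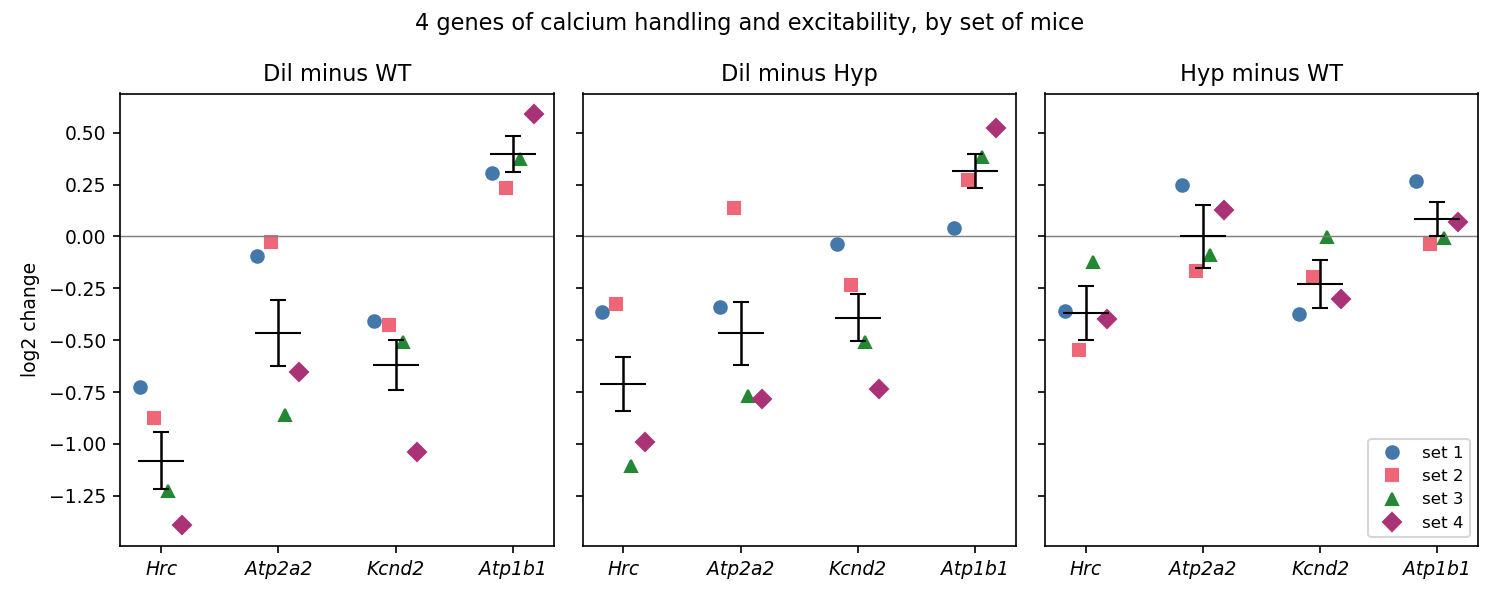
The 4 genes are plotted in the 3 comparisons, with the log2 change on the vertical axis, 1 marker per set of mice and a bar with its standard error from the fit over all arrays. Hrc lies below 0 in all 4 sets of each comparison, Atp1b1 lies above 0 in all 4 sets of Dil minus WT, and sets 3 and 4 hold the 2 lowest Atp2a2 values of Dil minus WT and of Dil minus Hyp.

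Hrc, the calcium-binding protein of the reticulum, had Dil minus WT values of -0.72, -0.87, -1.23 and -1.39 in sets 1 to 4. All 4 Dil hearts were below the WT heart of their set, and the fit put Hrc at -1.08 ± 0.14, which is 0.473 times the WT level. Only 6 of the 12097 features tested lay lower. Between Dil and Hyp the sets gave -0.37, -0.33, -1.11 and -0.99. Here too every Dil heart was lower, by more in sets 3 and 4 than in sets 1 and 2, and the fit gave -0.71 ± 0.13 (95% interval -0.99 to -0.43). In limma's moderated test the adjusted p was 0.0568, which misses the threshold, and again 6 of 12097 features lay lower.

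Hyp minus WT values of Hrc were -0.36, -0.55, -0.12 and -0.40 in sets 1 to 4. Each Hyp heart thus lay below its WT heart, by less than each Dil heart did, and the estimate was -0.37 ± 0.13 with a 95% interval of -0.65 to -0.087. Its adjusted p in limma's moderated test was 0.999 (0.0149 unadjusted). The array holds Hrc on only 1 spot, so no second spot checks these values.

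Atp2a2, the calcium pump of the reticulum, had Dil minus WT values of -0.094, -0.029, -0.86 and -0.65 in sets 1 to 4. The Dil hearts of sets 1 and 2 were close to WT and those of sets 3 and 4 well below it, and the fit gave -0.47 ± 0.16, a level 0.724 times that of WT. Of the 12097 features, 182 lay lower. Without set 3 the estimate was -0.31. Between Dil and Hyp the sets gave -0.34, 0.14, -0.77 and -0.78, so the Dil heart of set 2 was slightly above its Hyp heart. The estimate of -0.47 ± 0.15 (95% interval -0.80 to -0.13) had an adjusted p of 0.303 in limma's moderated test.

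Hyp minus WT values of Atp2a2 were 0.25, -0.17, -0.091 and 0.13. They lay on both sides of 0, and without set 1 the estimate was -0.11 ± 0.17. With all sets it was 0.0013 ± 0.15, with a 95% interval of -0.33 to 0.33. The adjusted p was 1.00 in limma's moderated test.

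Kcnd2, the potassium channel subunit, had Dil minus WT values of -0.41, -0.43, -0.51 and -1.04 in sets 1 to 4. The Dil hearts of sets 1 to 3 lay close together and that of set 4 stood apart on the lower side. The estimate was -0.62 ± 0.12, or 0.650 times the WT level. Between Dil and Hyp the values were -0.038, -0.23, -0.51 and -0.74. The Dil hearts of sets 2 to 4 were below their Hyp hearts. In set 1 the value lay near 0, and the direct Dil and Hyp array alone read 0.10 after the dye term was taken off, with each spot above 0. The estimate of -0.39 ± 0.11 (95% interval -0.64 to -0.14) had an adjusted p of 0.257 in limma's moderated test. Without set 4 it was -0.26. Hyp minus WT values were -0.37, -0.19, -0.0021 and -0.30, with an estimate of -0.23 ± 0.11 and a 95% interval of -0.48 to 0.021 (adjusted p = 0.999 in the same test).

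Atp1b1, the sodium pump subunit, had Dil minus WT values of 0.31, 0.23, 0.38 and 0.59 in sets 1 to 4. All 4 Dil hearts were above the WT heart of their set. The fit gave 0.40 ± 0.086, or 1.32 times the WT level, and 416 of the 12097 features lay higher. Between Dil and Hyp the values were 0.040, 0.27, 0.38 and 0.52. The Dil hearts were again higher in all 4 sets, with an estimate of 0.31 ± 0.081 (95% interval 0.14 to 0.49) and an adjusted p of 0.190 in limma's moderated test. Hyp minus WT values of 0.27, -0.039, -0.0095 and 0.070 gave 0.083 ± 0.081, with a 95% interval of -0.096 to 0.26 (adjusted p = 0.999 in the same test).

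As a background for these counts, 11.9% of all features were below 0 and 11.1% above 0 in all 4 sets of Dil minus WT, against 8.12% and 7.81% in Dil minus Hyp and 5.99% and 6.05% in Hyp minus WT. At an adjusted p under 0.05, 2.15% of features were called in Dil minus WT (1% higher and 1.15% lower), among them Hrc, Kcnd2 and Atp1b1 but not Atp2a2, and nothing is read from that count since this comparison helped to choose the genes. In Dil minus Hyp 0.165% of features were called, 0.141% higher and 0.0248% lower (20 of 12097 in all), with none of the 4 genes among them, and in Hyp minus WT 0% were, with 0 calls also under each of 18 alternative settings and 533 features at an unadjusted p under 0.05 in limma's moderated test. The comparisons share mice, so the values of a gene in Dil minus WT and in Dil minus Hyp are not independent of each other.

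Sets 3 and 4 also had the widest spread over all spots on the arrays with Dil RNA. The scaled median absolute deviation of the log ratios was 0.172, 0.335 and 0.354 on the Dil and WT arrays of sets 1, 3 and 4, and 0.127, 0.169, 0.236 and 0.250 on the Dil and Hyp arrays of sets 1 to 4, against 0.115, 0.152, 0.121 and 0.180 on the Hyp and WT arrays. With all arrays scaled to the same spread, Dil minus WT was -0.96 for Hrc, -0.51 for Kcnd2, -0.36 for Atp2a2 and 0.33 for Atp1b1.

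The clones behind the spots were not identified here, so it is not known which part of a transcript each spot detects. Nor is it known whether spots of the same gene hold the same clone. For Atp2a2 the 4 spots agreed in sign, with Dil minus WT values of -0.51 ± 0.24, -0.32 ± 0.16, -0.42 ± 0.13 and -0.60 ± 0.18 at spots 8071, 10345, 13542 and 13801. All 4 lay between -1.11 and -0.50 in sets 3 and 4, and between -0.26 and 0.39 in sets 1 and 2. The highest value was 0.39 at spot 10345 in set 2, where the other 3 spots lay at -0.26, -0.13 and -0.12.

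For Kcnd2 the spots 12602, 17014 and 17045 gave -0.69 ± 0.14, -0.83 ± 0.16 and -0.36 ± 0.14. All 3 were below 0 in each set, and spot 17045 gave the smallest change mainly through sets 3 and 4. In set 3 it was at -0.079 beside -0.69 and -0.76 at the other 2. Spots 17014 and 17045 lie in the same print block. In set 4 the 3 spots read -1.10, -1.34 and -0.67, each the lowest of that spot over the sets.

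For Atp1b1 the spots differed. Spots 11055, 16063 and 17169 gave 0.64 ± 0.16, 0.35 ± 0.098 and 0.59 ± 0.15, with values above 0 in every set, while spot 10350 gave -0.066 ± 0.068, with -0.14, 0.089, -0.063 and -0.068 in sets 1 to 4. The ratio of spot 10350 stayed between -0.24 and 0.18 on all 11 arrays. The gene average of 0.40 thus includes 1 spot with almost no change. The median over spots in place of the mean gave 0.38, without a call in Dil minus WT. Taken alone, no spot of this gene was called in that comparison either.

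**Figure D2:**
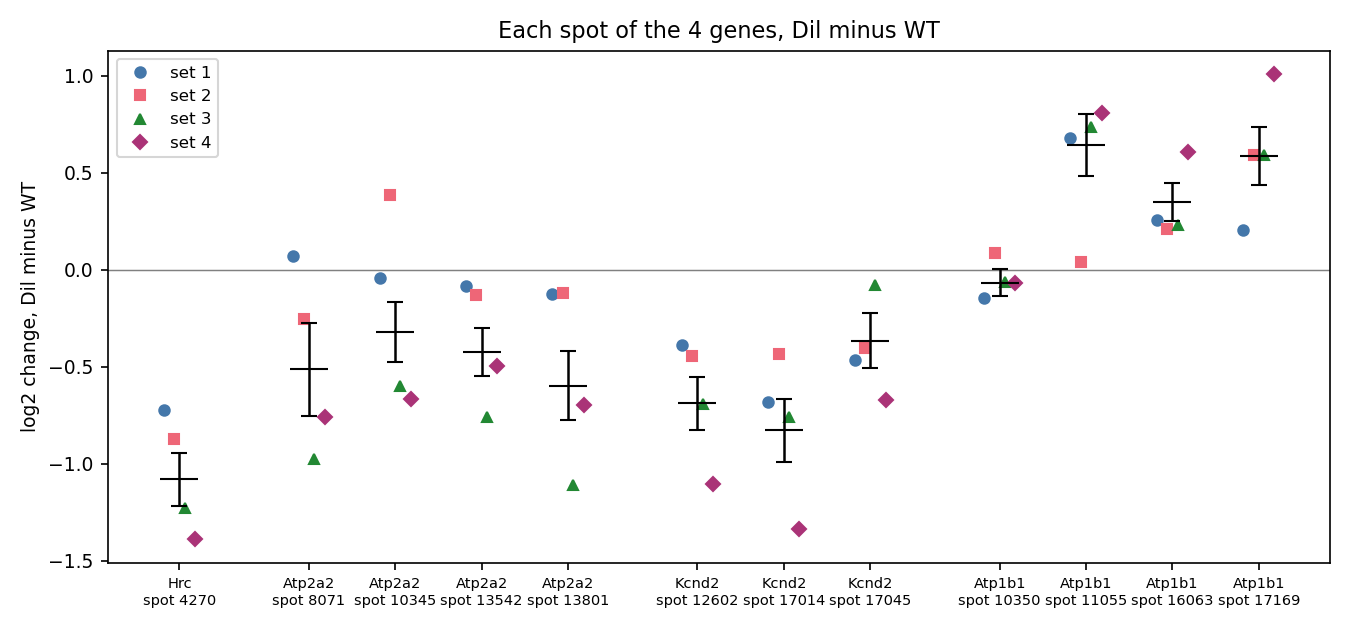
Each of the 12 spots of the 4 genes is plotted by the log2 change of Dil minus WT, with 1 marker per set and a bar with the standard error of the fit. The Hrc, Atp2a2 and Kcnd2 spots centre below 0, 3 Atp1b1 spots centre above 0, and Atp1b1 spot 10350 lies near 0 in all 4 sets.

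In sets 1, 3 and 4 the same Dil and WT mice were compared directly on an array and also through Hyp. The route through Hyp is the sum of the other 2 arrays. The gap measures technical error if both of those arrays carried the same Hyp mouse. For Hyp mouse 3 their labels give cardiac weight indices of 5.3 and 5.6 mg/g. For Hrc the direct and the indirect value were -0.78 and -0.61 in set 1, -1.19 and -1.31 in set 3, and -1.27 and -1.64 in set 4. They differed by at most 0.38, less than the smallest of these changes. For Kcnd2 they were -0.55 and -0.13, -0.50 and -0.54, and -1.10 and -0.92. The set 1 values are thus 0.42 apart, and the Hyp and WT array of that set held only 1 of the 3 Kcnd2 spots. For Atp1b1 they were 0.27 and 0.38, 0.42 and 0.29, and 0.70 and 0.38, with only 2 of its 4 spots on the Hyp and WT array of set 1.

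Atp2a2 agreed least. Its direct and indirect values were 0.044 and -0.37 in set 1, -0.97 and -0.64 in set 3, and -0.50 and -0.96 in set 4. The gaps of 0.41, -0.34 and 0.46 are about as large as the estimated change of -0.47, and in set 1 the 2 routes differ in sign. The Hyp and WT array of set 1 held only 2 of the 4 Atp2a2 spots, so the 2 routes of that set do not average the same spots.

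**Figure D3:**
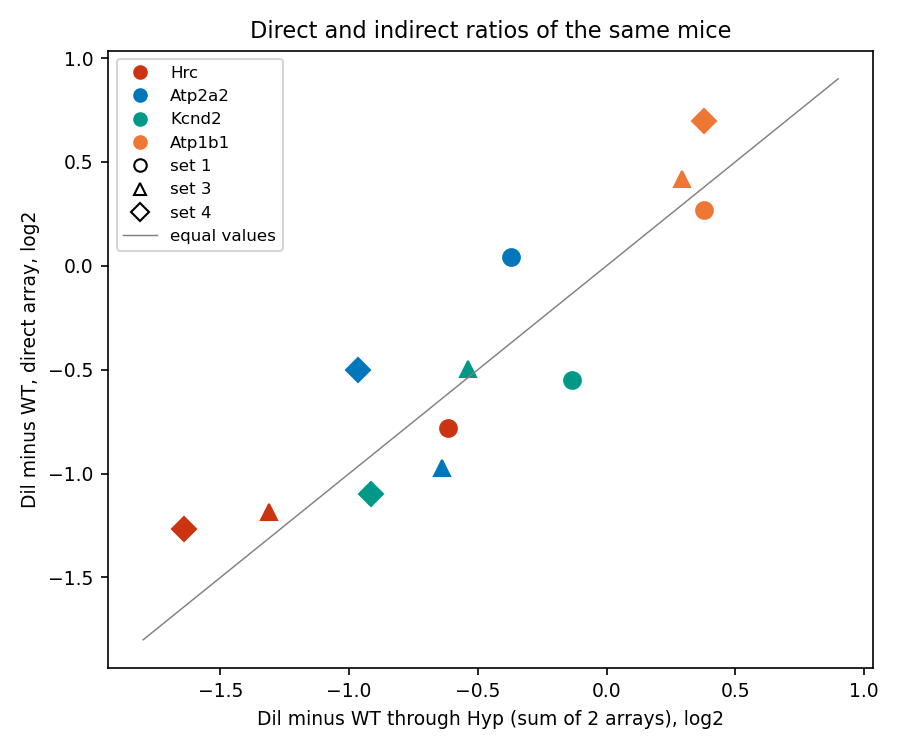
Dil minus WT read directly on an array (vertical axis, log2) is plotted against the sum of the 2 arrays through Hyp (horizontal axis, log2) for the 4 genes in sets 1, 3 and 4, with a line of equal values. Hrc and Kcnd2 points all lie below 0 on both axes, and the Atp2a2 point of set 1 lies above 0 on the direct axis and below 0 on the other.

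Around the calcium pump, 6 of the listed genes were measured, and 0 were called in any comparison. As a background for this list and those below, 2.15% of all features were called in Dil minus WT. The shares were 0.165% in Dil minus Hyp and 0% in Hyp minus WT. The list median of Dil minus WT was -0.0018, and the chosen Atp2a2 was the lowest. The highest was Ppp1ca, a catalytic subunit of protein phosphatase 1, at 0.17 ± 0.12. Atp2a3, which encodes a related pump, was at -0.039 ± 0.055, and Hax1, known to bind the pump's inhibitor phospholamban, at -0.014 ± 0.10. The genes of phospholamban (Pln) and sarcolipin (Sln) were not analysed here.

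Of 15 measured genes of the calcium store and its release, none besides the chosen Hrc was called in Dil minus WT, against 2.15% of all features. The list median was 0.091. Ryr2, the release channel itself, was at -0.33 ± 0.12 (adjusted p = 0.207 in limma's moderated test), with -0.55, -0.095, -0.025 and -0.54 in sets 1 to 4. Its lower values came in sets 1 and 4, a different pair from those of Atp2a2. Camk2b, a calcium-dependent kinase subunit, was the highest at 0.37 ± 0.15, and Sri, which encodes sorcin, a calcium-binding regulator of the release channel, was at 0.20 ± 0.071. Casq2 and Trdn, the store protein calsequestrin and its anchor triadin, were not analysed here.

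Of the 6 measured genes of the sodium pump list, Fxyd6 was called higher in Dil minus WT beside the chosen Atp1b1. None was called lower, and the list median was 0.21. Of all features, 1% were called higher and 1.15% lower. The call of Atp1b1 was lost in 12 of 18 alternative settings. Fxyd6 encodes a small membrane protein of the family that modulates the pump. It was at 1.02, 0.071, 1.12 and 1.67 in sets 1 to 4, so 3 of the 4 Dil hearts were well above WT and that of set 2 was not. Its estimate was 1.10 ± 0.19 (adjusted p = 0.0237 in limma's moderated test), from a single spot. The other beta subunits did not share the direction of Atp1b1: Atp1b2 was at -0.19 ± 0.076 and Atp1b3 at -0.12 ± 0.10, neither of them called. The regulator gene Fxyd1 was not analysed here.

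Of 14 measured potassium channel genes, none besides the chosen Kcnd2 was called in Dil minus WT, against 2.15% of all features. The list median was -0.052. Kcnd3, which encodes the closest relative of the Kcnd2 channel and contributes to the same current, was at -0.18, -0.026, -0.37 and -0.81 in sets 1 to 4. It lay below 0 in every set and lowest in set 4, as Kcnd2 did, with an estimate of -0.39 ± 0.12 (adjusted p = 0.122 in limma's moderated test). Kcnj11, a pore subunit of the ATP-sensitive channel, had the highest estimate at 0.41 ± 0.39, a change hardly larger than its error. Kcnip2, an auxiliary subunit of the Kcnd channels, was not analysed here.

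Calcium transport at the surface membrane gave 0 calls among 6 measured genes (median -0.037). The range ran from -0.22 ± 0.086 for Atp2b1, a plasma membrane calcium pump, to 0.036 ± 0.088 for Slc8a1, the sodium-calcium exchanger. Mitochondrial calcium transport also gave 0 calls among 6 genes (median -0.083), with Vdac3, an outer membrane channel, at -0.31 ± 0.089 and Micu2, a regulator of the calcium uniporter, at 0.41 ± 0.13. The 5 measured genes of sodium and pacemaker channels and proton exchange lay between -0.042 ± 0.070 (Scn2b, a sodium channel subunit) and 0.10 ± 0.061 (Slc4a4, a bicarbonate cotransporter), and 0 were called. Among 5 genes of the gap junction and intercalated disc 0 were called, with Tjp1, a junction scaffold, at -0.17 ± 0.089 and Jup, a desmosome protein, at 0.48 ± 0.44.

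Of 19 measured genes of calcium binding and calcineurin signalling, 1 was called higher and 1 lower in Dil minus WT. Of all features, 1% were called higher and 1.15% lower. The list median was 0.020. Rcan1, an inhibitor of the phosphatase calcineurin and itself a known target of calcineurin signalling, was at 1.45, 1.25, 1.47 and 1.92 in sets 1 to 4. It was the highest of all listed genes at 1.56 ± 0.13 (adjusted p = 0.00102), and the only listed gene called in Dil minus Hyp, at 1.00 ± 0.12 (adjusted p = 0.0236, both in limma's moderated test). Nfatc4, a transcription factor that calcineurin activates, was at -0.37, -0.85, -0.41 and -0.80, with an estimate of -0.57 ± 0.11 (adjusted p = 0.0311 in the same test). Calr, a calcium-binding chaperone of the reticulum, was at 0.55 ± 0.26 in Dil minus WT and 0.68 ± 0.25 in Hyp minus WT, without a call in either.

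Together the 9 lists hold 199 genes, of which 82 were measured. In Dil minus WT 3 were called higher and 3 lower, against 1% and 1.15% of all features, 43 lay above 0 and 39 below it, and the median was 0.0071, against 0.0029 over all features. Without the 4 chosen genes 2 of 78 were called higher and 1 lower. In Dil minus Hyp the median was -0.0066 with 1 call, and in Hyp minus WT 0.0027 with 0 calls, against -0.0037 and 0.00075 over all features. The lists were put together with earlier results of these arrays known, so their counts are a description. Ryr2, Atp1b2, Atp1b3, Kcnd3, Rcan1 and Nfatc4 each lie on a single spot, as Hrc and Fxyd6 do, so no second spot checks them.

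**Figure D4:**
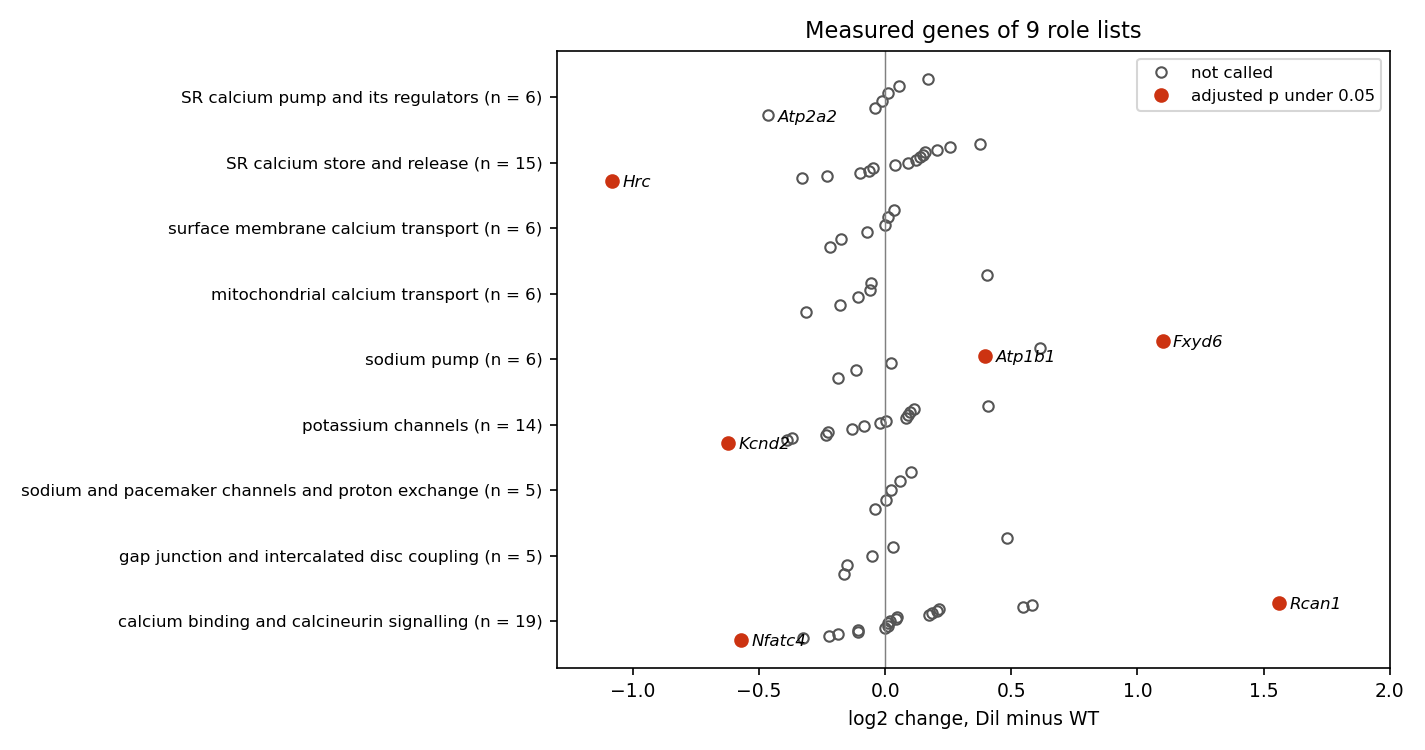
The 82 measured genes of the 9 role lists are plotted by the log2 change of Dil minus WT (horizontal axis), with 1 row per list, and filled points are genes at an adjusted p under 0.05. Hrc lies furthest to the left and Rcan1 furthest to the right, and most points lie near 0.

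The profile of a gene over the 11 arrays, each turned so that Dil stands over Hyp or WT and Hyp over WT, was compared with those of 6831 named genes with values on every array. The 3 genes most like Hrc by Pearson r were Ghr, the growth hormone receptor (0.939), Smim20 (0.935) and Cycs, cytochrome c (0.934). Those most like Atp2a2 were Reep5 (0.968), Flcn (0.966) and Fkbp4 (0.951), those most like Kcnd2 were Mrps35 (0.972), Mterf2 (0.955) and Mmut (0.954), and those most like Atp1b1 were Fez2 (0.936), Ipo4 (0.929) and Azin1 (0.929). Among the 4 genes, Hrc had r of 0.869 with Kcnd2, 0.772 with Atp2a2 and -0.757 with Atp1b1, and Kcnd2 had -0.864 with Atp1b1, whereas Atp2a2 had 0.445 with Kcnd2 and -0.493 with Atp1b1. The arrays share mice and differ in spread, so these values describe 11 points that are not independent.

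Of 18 cardiomyocyte marker genes only Actn2 and Ttn were measured, at 0.46 ± 0.18 and 0.075 ± 0.071 in Dil minus WT, both without a call. Ttn was at -0.17 in set 2. Without levels, the labelled tissue could not be checked against its markers. Of 16 fibroblast markers 12 were measured, 9 of them above 0, with a median of 0.21 and set medians of -0.12, -0.0073, 0.44 and 0.36. The 4 measured of 14 macrophage and leukocyte markers had a median of 0.24 and set medians of 0.041, -0.031, 0.27 and 0.53. Both lists were thus higher in sets 3 and 4, the sets with the lower Atp2a2, and 0 of their genes were called. The part of any cell type in the results was not tested. Medians of the other measured marker lists were -0.41 for skeletal muscle, -0.15 for atrial, -0.092 for adipocyte, -0.055 for endothelial, -0.055 for smooth muscle and pericyte, 0.0089 for nerve and Schwann cell, 0.062 for lymphocyte and 0.22 for erythrocyte genes, and 0 genes were called in any of them.

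Across 18 alternative settings the sign of Dil minus WT did not change for any of the 4 genes. This is a description, since the genes were chosen with that comparison in view. The settings that changed only the filter on missing values left these estimates as reported. Hrc ranged from -1.23 to -0.96, Kcnd2 from -0.81 to -0.44, Atp2a2 from -0.62 to -0.31 and Atp1b1 from 0.30 to 0.52. Leaving out the mice of set 3 or of set 4 ended the calls of Hrc, Kcnd2 and Atp1b1 in that comparison, leaving out set 2 also ended those of Kcnd2 and Atp1b1, and leaving out set 1 that of Atp1b1. Without set 3 the estimates were -1.01 for Hrc, -0.66 for Kcnd2 and 0.41 for Atp1b1, and without set 4 they were -0.97, -0.44 and 0.30. Without set 2, Kcnd2 was at -0.65 and Atp1b1 at 0.43, and without set 1 Atp1b1 was at 0.43. The calls of Hrc, Kcnd2 and Atp1b1 were also not made in a test over the 4 set values, with the set as a block, where the estimates were -1.05, -0.60 and 0.38.

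**Figure D5:**
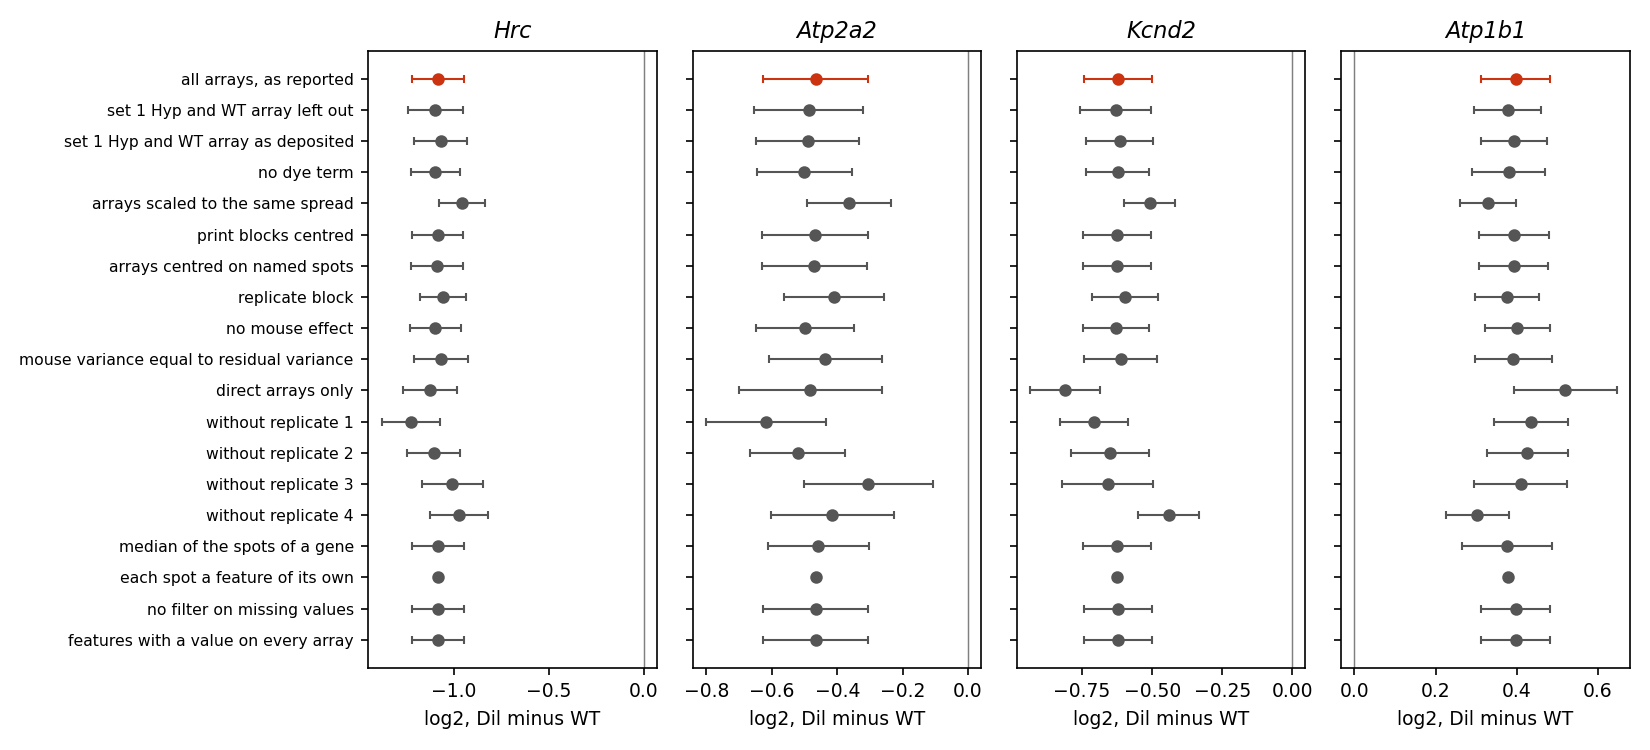
Dil minus WT of the 4 genes is plotted under all settings (rows), with the log2 change and its standard error on the horizontal axis and the reported value in red. The estimates keep their side of 0 in each row, Atp2a2 is smallest without replicate 3 and Kcnd2 is smallest without replicate 4.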

How the data were processed

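Ventricular RNA of 12 mice (4 Dil, 4 Hyp, 4 WT) was hybridised in pairs to 11 cDNA arrays with 2 colours, per the labels. The authors deposited 1 log ratio per spot and array, taken here as log2 values. The sources used here do not give the scanner, the background correction or the normalization, and column medians lay between -0.0114 and 0.0068. On the Hyp and WT array of set 1, rows were displaced: 40 of 46 groups of positions were moved back by 8 print blocks, where 24 of 24 blocks matched the other arrays of the set best. This raised the correlation over named spots to 0.807, against 0.488 as deposited, and left 3840 spots without a value there, among them 2 of 4 Atp2a2, 2 of 3 Kcnd2 and 2 of 4 Atp1b1 spots. The move was decided with the data in view.

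Control spots were left out and spots of a gene averaged per array. Features with values on fewer than 9 arrays were dropped, which left 12097 features (8106 genes, 3991 unnamed spots). Each was fitted by generalised least squares with terms for Dil minus WT, Hyp minus WT and the dye, and mice as random effects with 1 variance ratio (0.303). Fits were moderated with limma 3.58.1 (R 4.3.3, prior degrees of freedom 3.26, residual degrees of freedom 8, which count arrays and not mice), with Benjamini-Hochberg adjustment over all features and a threshold of 0.05. Set values are least squares over the arrays of a set after the dye term was taken off. The fit was also run on data simulated with its own mouse and residual noise, which cannot show whether its assumptions suit these data. Summaries used Python 3.11.15.

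Same-numbered mice share every array, so differences between sets cancel in each ratio. The labels do not say what else a number stands for. P-values of the main fit rest on the residual spread between arrays, with a mouse variance ratio (0.303) shared by all features. The spread between mice was thus not estimated for each gene, and these p-values do not measure it.

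The members and lists were chosen with earlier results of these data known. Named were the 4 genes, every listed gene called in any comparison, the highest and lowest gene of each role list in Dil minus WT, direct partners of the 4 where measured, and the 3 genes most like each. Atp2a3, Hax1 and Sri were added after their values were seen. Alternatives were the displaced array left out or as deposited, the dye term, scaling, centring by print block or on named spots, the mouse variance, direct arrays only, each set left out, the replicate block, spot averaging and the filter on missing values.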

Additional observations from a re-analysis of the deposited data

Results flagged for a closer look

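The Dil minus WT value of Kcnd2 in set 4 (-1.04 on the log2 scale) lay far from the other 3 sets, which were at -0.41, -0.43 and -0.51. Of 12 groups of 4 set values examined, 1 was singled out in this way by Dixon's test, which by chance singles out about 1 in 20. All 3 spots of the gene were lowest in set 4, and without that set the estimate was -0.44.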

How the results depend on the processing

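Among 216 alternative values for the 4 genes, the sign changed in 9, all of them Atp2a2 in Hyp minus WT, which lay near 0 as reported and ran from -0.11 to 0.13. In Dil minus WT, given as a description, 22 of 72 values lost the call (4 for Hrc, 6 for Kcnd2, 12 for Atp1b1). In Dil minus Hyp 3 of 72 gained one and in Hyp minus WT 0 of 72. The 3 gained were all Hrc: -0.73 (adjusted p = 0.0469) with the displaced array as deposited, -0.72 (0.0292) with no dye term and -0.72 (0.0345) with no mouse effect, in limma's moderated test, over a range of adjusted p from 0.0292 to 0.999. Counts moved more. Features called in Dil minus WT, 260 as reported, were 159 with the displaced array left out, 99 with arrays scaled, 108 with equal mouse and residual variance, 7 from direct arrays and 0 to 121 with a set left out (0 without set 3, 12 without set 4, 80 without set 2, 121 without set 1). In Dil minus Hyp, 20 as reported, they were 7 with that array left out, 41 with it as deposited, 43 with no dye term, 52 with no mouse effect, 1 with equal variances, 0 from direct arrays and 0 to 15 with a set left out. Listed genes called were 1 from direct arrays and 0 to 3 with a set left out in Dil minus WT (6 as reported, 0 without set 3, 1 without set 4, 3 without set 1 or set 2). In Dil minus Hyp (1 as reported) they were 2 with the array as deposited, with no dye term and with no mouse effect, 0 with arrays scaled, with equal variances and from direct arrays, and 0 to 2 with a set left out (2 without set 2, 0 without any other). With the replicate block 6 features were called in Dil minus WT, 0 in Dil minus Hyp and 0 in Hyp minus WT, and 1 and 0 listed genes in the first and the second, while Hrc, Kcnd2, Atp1b1 and Atp2a2 were at -1.05, -0.60, 0.38 and -0.41 in Dil minus WT, without a call. The median of the listed genes stayed between -0.033 and 0.017 in all 3 comparisons and changed sign in 5 of 18 settings in Dil minus WT, 1 in Dil minus Hyp and 5 in Hyp minus WT. No filter on missing values left the same 12097 features. The cause of these shifts was not tested. Depth per spot is unknown, and the 11 arrays limit the precision.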
